A study of Mus musculus with 4 samples.

Results

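Motile cilia genes were followed in mouse endometrium, the lining of the uterus. The set holds 71 of the 28545 genes in the deposited tables, taken by symbol: every gene whose name starts with Dnah, Dnai, Cfap or Rsph, and Foxj1, Mcidas, Ccno, Rfx2, Rfx3, Ccdc39, Ccdc40, Tekt1, Tekt2, Tekt4, Hydin and Spag6l. Polyadenylated RNA was sequenced in 4 libraries from mice whose Smad7 gene carried loxP sites, introduced with Cas9 in fertilized eggs. The control group was 2 libraries labelled SMAD7fl/fl with a blank treatment. The other group was 2 libraries labelled SMAD7 Cre+/-, given as conditional knockout (CKO), in which Cre recombinase is meant to cut out the DNA between the loxP sites. The design text puts all mice in proestrus, the stage before ovulation, and speaks of uterine tissue and of wild-type mice where the sample labels name endometrium and floxed mice. The Cre driver, the deleted exons, the age of the mice, and whether each library came from a separate animal or a pool stay unstated in the labels and design text used here. P-values therefore reflect the spread among the 4 libraries, part of which may be technical.

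A motile cilium is built on an axoneme, a cylinder of doublet microtubules around a central pair. Outer and inner dynein arms pull neighbouring doublets past each other, radial spokes carry signals between the central pair and the arms, and proteins inside and along the doublets set spacing and stability. Foxj1 is the transcription factor that drives the expression of this machinery, together with the RFX factors. In the female tract of the mouse, multiciliated cells line much of the oviduct and are sparse in the uterus.

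Smad7, an inhibitor of TGF-beta receptor signalling and the gene named in the labels, had 7.79 and 7.81 FPKM (fragments per kilobase of exon, scaled to the library's total count) in the SMAD7fl/fl libraries and 49.9 and 33.9 FPKM in the SMAD7 Cre+/- libraries. The gene meant to be deleted thus had more reads under the SMAD7 Cre+/- label, so directions here follow the labels, and loss of Smad7 was not seen at the gene level. Whether the group labels were exchanged was not tested, and with exchanged labels every direction given here would turn. Counts were given per gene, and loss of single exons was not analysed here. Total counts ran from 17444368 to 22950532 per library, of which the 71 genes took between 5462 and 17404. The pair of SMAD7fl/fl libraries differed more from each other, with a biological coefficient of variation of 0.425, than the pair of SMAD7 Cre+/- libraries, with 0.203.

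Most motile cilia genes had their highest level in the libraries labelled SMAD7 Cre+/-, and above all in replicate 2 of that group. The summed FPKM of the 71 genes was 71.8 and 83.1 in the SMAD7fl/fl libraries, 91.9 in SMAD7 Cre+/- replicate 1 and 210.7 in SMAD7 Cre+/- replicate 2. The groups did not overlap, and their means stood at a ratio of 1.95, which was 1.19 without SMAD7 Cre+/- replicate 2 and 2.72 without replicate 1. Part of the excess lay in genes that were nearly silent in the SMAD7fl/fl libraries. The 35 members with under 20 counts in those 2 libraries together held 136 and 112 counts there, 547 in SMAD7 Cre+/- replicate 1 and 4681 in replicate 2. These 35 were chosen for low SMAD7fl/fl counts, which by itself favours a higher SMAD7 Cre+/- total. The same totals over all genes with so few counts were not computed. The 11 members with a mean of 2 FPKM or more in the SMAD7fl/fl libraries had ratios of group means between 0.769 and 3.27. In bulk tissue, more cells of a type and more RNA per cell cannot be told apart.

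**Figure D1:**
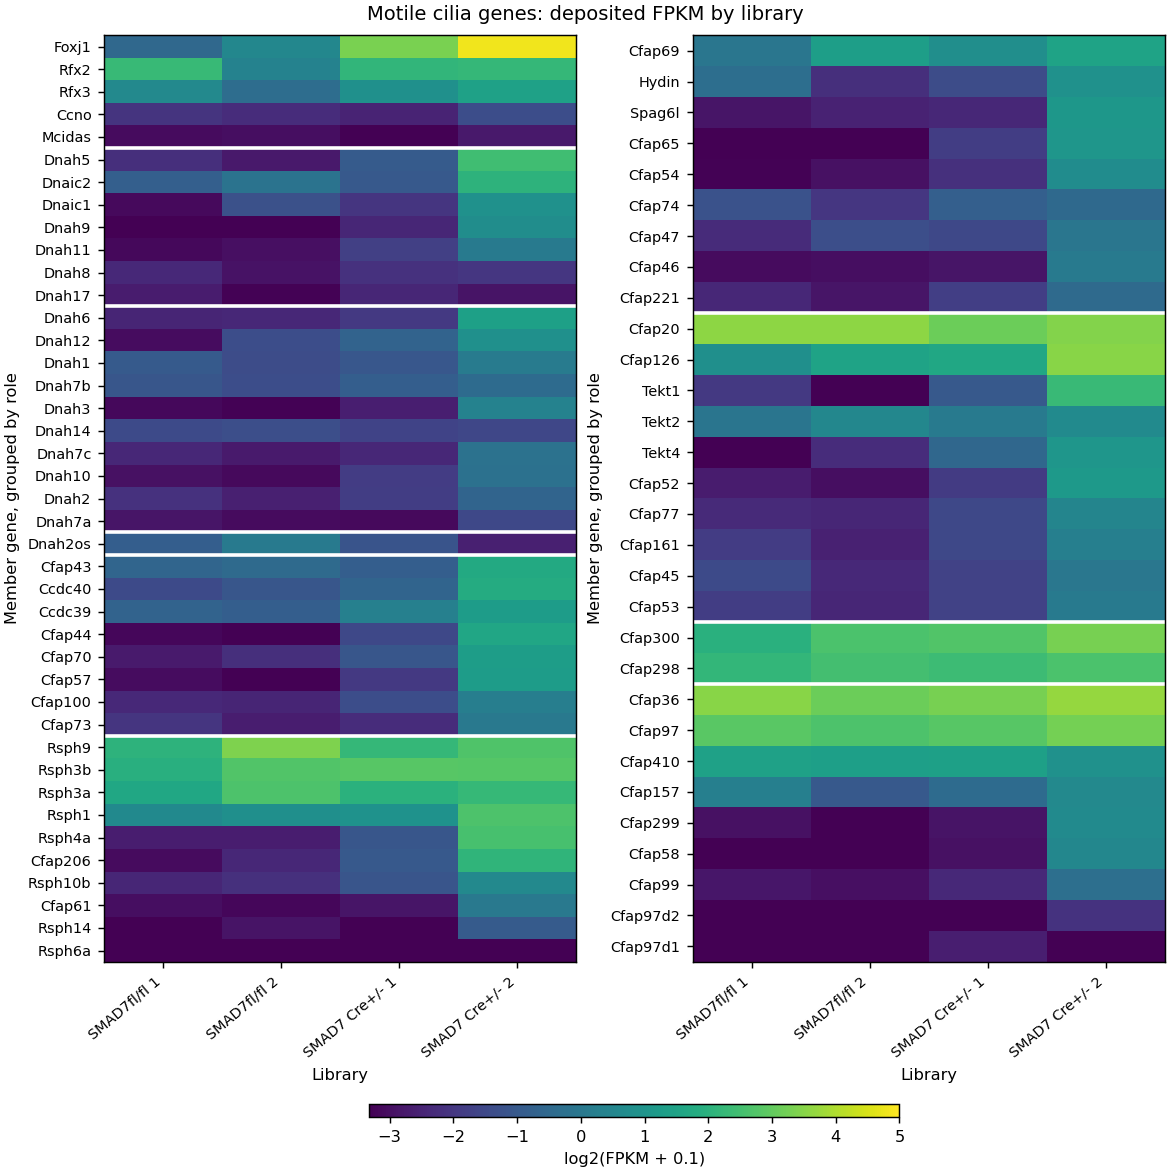
Level of each of the 71 motile cilia genes in each library, as log2(FPKM + 0.1), with genes in rows grouped by role (white lines) and libraries in columns. The column of SMAD7 Cre+/- replicate 2 is brightest for most axonemal genes, Foxj1 is bright in both SMAD7 Cre+/- columns, and Cfap20, Cfap36 and Cfap97 have a similar colour in all 4 columns.

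No member passed the test across all genes. A gene entered edgeR's quasi-likelihood test with a mean of at least 10 counts over the 4 libraries, which 61 of the 71 members and 16535 genes in all did. With a Benjamini-Hochberg adjusted p under 0.05 as the threshold, 0 of 61 members and 0 of the 16535 genes passed in either direction, a background of 0%. The lowest adjusted p of a member was 0.129, for Foxj1. At an unadjusted p under 0.05, 29 members were higher and 0 were lower in the libraries labelled SMAD7 Cre+/-, where 8.35% of all tested genes were higher and 6.86% lower. DESeq2, a count test that shares spread between genes in another way, called 23 members higher and 0 lower after adjustment at the same threshold, against 3.37% and 2.7% of all tested genes. An exact two-sided permutation test of a single value cannot go below p = 0.333 with 2 against 2 libraries.

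The direction was shared by most of the tested members. The log2 fold change, SMAD7 Cre+/- minus SMAD7fl/fl, was above 0 for 56 of 61 members and for 47.1% of all tested genes. Its median was 2.22 over the members and -0.039 over all tested genes. Both SMAD7 Cre+/- libraries lay above both SMAD7fl/fl libraries for 40 members and below them for 2, while 25.5% and 24.3% of all tested genes did so. Of the 61, 26 passed the count minimum only through the libraries labelled SMAD7 Cre+/-, so they had to differ in that direction. The other 35 reached a mean of 10 counts in each group. Among these, 6 were higher at an unadjusted p under 0.05 and 0 lower, where 6.77% and 6.5% of the 15561 genes with 10 counts in each group were. DESeq2 called 5 of the 35 higher and 0 lower, against 2.7% and 2.61%. The groups did not overlap for 16 higher and 2 lower, against 23.9% and 24.1%. The median log2 fold change of the 35 was 1.06, and that of the 15561 genes was -0.047. Counts of members by role are given below for genes that reached 10 counts in each group, and these 2 backgrounds of 6.77% and 6.5% apply to each.

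SMAD7 Cre+/- replicate 2 held the highest level for 53 of the 61 tested members, against 21.6% of all tested genes. It did so for 27 of the 35 that reached 10 counts in each group, against 20.7% of such genes. Without it, the median log2 fold change of the members was 0.81, and without SMAD7 Cre+/- replicate 1 it was 3.11. Replicate 1 by itself lay above both SMAD7fl/fl libraries for 42 of 61 members and below both for 5, where 32.6% and 33.0% of all tested genes did so. Replicate 2 lay above both for 53 and below both for 3, against 34.2% and 33.6%. A fit without replicate 2 leaves 1 library in its group, and fewer genes of any kind then pass, so only the change in level is read here.

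**Figure D2:**
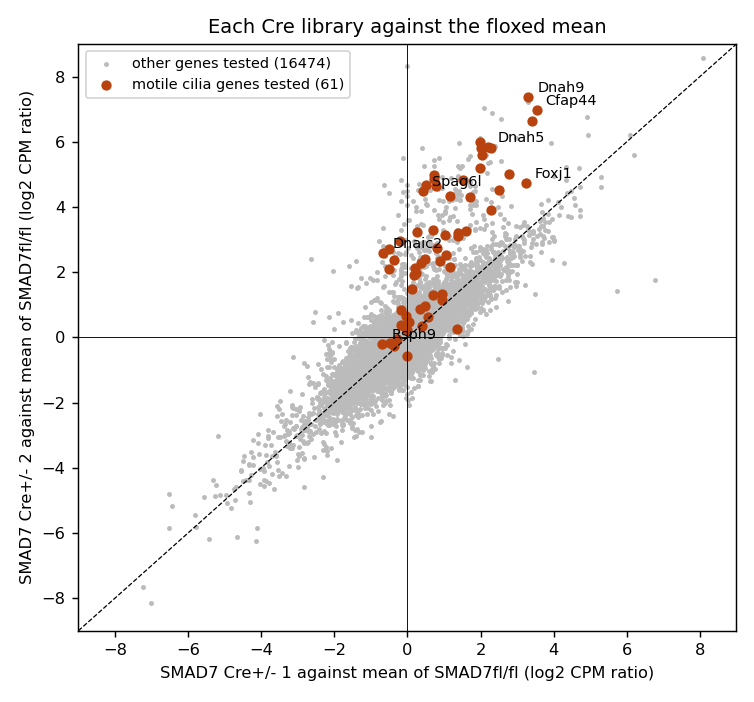
Log2 ratio of CPM (counts scaled to TMM-adjusted library size, with 0.153 CPM added to each value) of SMAD7 Cre+/- replicate 1 (horizontal) and replicate 2 (vertical) to the mean of the SMAD7fl/fl libraries, for 61 tested motile cilia genes (orange) and 16474 other genes (grey). Most members lie above the dashed line of equal ratios. Both axes share the SMAD7fl/fl mean, so points are drawn toward that line by construction.

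Foxj1 had the largest log2 fold change of the 3 tested regulators of motile ciliogenesis in the set. Foxj1 (ENSMUSG00000034227, chromosome 11 from 116330704 to 116335399, minus strand of GRCm38), the forkhead factor named above, had 0.598 and 1.34 FPKM in the SMAD7fl/fl libraries and 9.94 and 28.4 FPKM in the SMAD7 Cre+/- libraries, from 36, 64, 517 and 1301 counts. Its group means were 0.97 ± 0.525 and 19.2 ± 13.1 FPKM (SD, n = 2 each). Both SMAD7 Cre+/- libraries were far above both SMAD7fl/fl libraries, and replicate 1 alone was 10.6-fold above the SMAD7fl/fl pair (95% exact counting interval 8.56 to 13.3). The log2 fold change was 4.27 ± 0.71 (SE, edgeR adjusted p = 0.129). With the replicate number as a block it was 4.20 (edgeR adjusted p = 0.0223), the only member called in that fit. Among all 16535 tested genes that fit called 8 higher and 8 lower. Same-numbered libraries deviated with a correlation of -0.065, so the data give this pairing no support. The Foxj1 log2 fold change was 3.74 and 5.01 without SMAD7fl/fl replicate 1 and 2, and 4.82 and 3.32 without SMAD7 Cre+/- replicate 1 and 2. Each of these fits leaves 1 library in a group, so only the level is read. DESeq2 called Foxj1 higher (4.26, DESeq2 adjusted p = 6.7e-09), as it did 3.37% of all tested genes.

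Of the other regulators in the set, Rfx3 differed less, Rfx2 overlapped between groups, and Mcidas and Ccno had too few counts to test. Rfx3, a partner of Foxj1 at ciliary gene promoters, had 1.42 and 0.677 FPKM in the SMAD7fl/fl libraries and 1.72 and 2.63 FPKM in the SMAD7 Cre+/- libraries. The groups did not overlap, by a small margin, and the log2 fold change was 1.04 ± 0.42 (SE, edgeR adjusted p = 0.341). Rfx2, a related factor, had 4.76 and 1.19 FPKM against 4.39 and 4.59 FPKM. Its groups overlapped, because SMAD7fl/fl replicate 1 was the highest library and replicate 2 the lowest. Mcidas, the coactivator multicilin that starts the multiciliated programme, had 1, 1, 0 and 2 counts. Ccno, a cyclin needed for amplifying basal bodies, had 8, 5, 4 and 13 counts, and neither gene reached the count minimum. At this depth a difference between groups was not detectable for either.

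Dynein arm genes followed in order of their place on the doublet. Of the 7 outer arm genes, 3 entered the test only through the libraries labelled SMAD7 Cre+/-. Of the other 4, 1 was higher at an unadjusted p under 0.05 and 0 lower. Dnah5 (chromosome 15 from 28203752 to 28472052, plus strand), an outer arm heavy chain, had 0.117 and 0.0492 FPKM in the SMAD7fl/fl libraries and 0.419 and 5.34 FPKM in the SMAD7 Cre+/- libraries. The latter were both higher, with replicate 2 12.6-fold above replicate 1, and the log2 fold change was 5.07 ± 1.31 (SE, edgeR adjusted p = 0.218). Dnah9, the heavy chain of the distal part of the cilium, had no counts in either SMAD7fl/fl library and 27 and 445 counts in the SMAD7 Cre+/- libraries. Taking 3 counts over the SMAD7fl/fl pair as the limit that a count of 0 allows, it was at least 171-fold higher over both SMAD7 Cre+/- libraries and at least 18.5-fold higher in replicate 1 alone. Dnah11, the heavy chain of the proximal part, had 4 and 7 counts against 57 and 249 counts, a log2 fold change of 4.89 ± 1.03 (SE, edgeR adjusted p = 0.168).

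The intermediate chains of the outer arm were high in a single library. Dnaic2 had 0.467 and 0.794 FPKM in the SMAD7fl/fl libraries, 0.397 FPKM in SMAD7 Cre+/- replicate 1 and 4.09 FPKM in replicate 2. Dnaic1 had 0.0157, 0.316, 0.145 and 1.75 FPKM in the same order. For both, SMAD7 Cre+/- replicate 1 was not above the higher SMAD7fl/fl library, and without replicate 2 their log2 fold changes were -0.70 and -0.21. Dnah8 and Dnah17, heavy chains of the same class that are best known from sperm, stayed at or under 0.15 FPKM in every library. Dnah8 had 59 and 16 counts against 69 and 70, and Dnah17 had 20 and 1 against 28 and 10, with SMAD7 Cre+/- replicate 1 and not replicate 2 the highest for the latter.

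Of the 10 inner arm genes, 3 entered the test only through the libraries labelled SMAD7 Cre+/-. Of the other 7, 2 were higher at an unadjusted p under 0.05 and 0 lower. Dnah10, a heavy chain of the double-headed inner arm, had 11 and 5 counts in the SMAD7fl/fl libraries and 57 and 211 counts in the SMAD7 Cre+/- libraries. Its groups did not overlap, and the log2 fold change was 4.25 ± 0.89 (SE, edgeR adjusted p = 0.166). Dnah2, its partner in that arm, had 43 and 18 counts against 55 and 141 counts. Dnah6, a heavy chain of the single-headed arms and the inner arm gene with the highest mean FPKM, had 0.0822, 0.0913, 0.16 and 2.53 FPKM. Here the SMAD7 Cre+/- replicate 1 value was 1.84-fold above the SMAD7fl/fl pair (95% exact counting interval 1.18 to 2.85), and most of the log2 fold change of 3.91 ± 1.29 (SE, edgeR adjusted p = 0.275) came from replicate 2. Dnah12 had 0.0218 and 0.288 FPKM against 0.525 and 1.7 FPKM, and Dnah1 had 0.408 and 0.282 FPKM against 0.383 and 1.01 FPKM. Dnah3 had 4 and 1 counts against 18 and 299 counts. Dnah12 and Dnah3 did not overlap between groups, whereas Dnah1 did.

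A single inner arm gene went the other way. Dnah14, a dynein heavy chain of the inner arm class, had 0.263 and 0.302 FPKM in the SMAD7fl/fl libraries and 0.219 and 0.239 FPKM in the SMAD7 Cre+/- libraries. The SMAD7 Cre+/- libraries were both lower, with a log2 fold change of -0.34 ± 0.40 (SE, edgeR adjusted p = 0.71). Dnah2os, the antisense transcript of Dnah2 that the symbol rule also takes in, had 9 and 15 counts against 6 and 1 counts, under the count minimum. It shares 36.3% of its exon bases with Dnah2, and the sources do not say whether counting used strand.

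Dnah7a, Dnah7b and Dnah7c are 3 close copies of an inner arm heavy chain on chromosome 1, and differed in level. Dnah7b had 171 and 105 counts in the SMAD7fl/fl libraries and 185 and 230 counts in the SMAD7 Cre+/- libraries. Dnah7c had 26, 12, 22 and 171 counts, and Dnah7a had 11, 4, 4 and 56 counts. Dnah7b was thus spread over all 4 libraries, and the other two were high in SMAD7 Cre+/- replicate 2. Of the stretches of 75 bases in their exons, 26.6%, 21.0% and 33.2% also occur in exons of other genes, so reads could be split between the copies and these counts are uncertain.

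Of the 7 tested genes of the structures that set the spacing of the arms, 4 entered the test only through the libraries labelled SMAD7 Cre+/-. Of the other 3, Ccdc39 and Ccdc40 were higher at an unadjusted p under 0.05. Ccdc39 and Ccdc40 encode the molecular ruler along the doublet. Ccdc39 had 0.521 and 0.458 FPKM in the SMAD7fl/fl libraries and 1.13 and 2.3 FPKM in the SMAD7 Cre+/- libraries, a log2 fold change of 1.78 ± 0.46 (SE, edgeR adjusted p = 0.219). Ccdc40 had 0.267, 0.365, 0.535 and 3.39 FPKM, with a log2 fold change of 2.59 ± 0.92 (SE, edgeR adjusted p = 0.292). Both SMAD7 Cre+/- libraries were above both SMAD7fl/fl libraries for each. Of the exon bases of Ccdc39, 16.9% overlap exons of Ttc14, which makes its counts uncertain.

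Cfap43 and Cfap44, partners in the tether that links the inner arm motor to the doublet, differed in the SMAD7fl/fl libraries. Cfap44 (chromosome 16 from 44394796 to 44482428, plus strand) had 2 and 0 counts there and 42 and 429 counts in the SMAD7 Cre+/- libraries. Over the groups this was a CPM ratio of 256 (95% exact counting interval 70.5 to 2122; edgeR adjusted p = 0.17). Cfap43 had 0.549 and 0.631 FPKM against 0.464 and 3.22 FPKM, so that SMAD7 Cre+/- replicate 1 was the lowest library and replicate 2 the highest. Cfap57, an axonemal regulator of inner arms, had 2 and 0 counts against 13 and 164, a log2 fold change of 6.52 ± 1.75 (SE, edgeR adjusted p = 0.227). Cfap70, a protein at the outer arm, had 5 and 9 counts against 31 and 179. Cfap100 and Cfap73, partners in a modifier complex of the inner arm, had 9, 6, 24 and 77 counts and 3, 1, 2 and 15 counts.

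Radial spoke genes were of 2 kinds. Rsph3a, Rsph3b and Rsph9 had between 3.04 and 10.3 FPKM in every library, and Rsph1 between 1.43 and 6.31 FPKM. Rsph9, a spoke head protein, had 4.03 and 10.3 FPKM in the SMAD7fl/fl libraries and 4.56 and 6.44 FPKM in the SMAD7 Cre+/- libraries. The SMAD7fl/fl libraries enclosed the others, and the log2 fold change was -0.43 ± 0.55 (SE, edgeR adjusted p = 0.73). Rsph3a, a spoke stalk protein, had 3.04 and 6.29 FPKM against 3.92 and 4.7 FPKM, also enclosed, with a log2 fold change of -0.16 ± 0.45 (SE, edgeR adjusted p = 0.884). Its copy Rsph3b had 3.72, 6.58, 7.04 and 6.9 FPKM. These copies share 52.5% and 60.4% of their stretches of 75 bases with other genes, so the split between them is uncertain.

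The other kind was near silent in the SMAD7fl/fl libraries. Rsph4a (chromosome 10 from 33905111 to 33916021, plus strand), the spoke head protein of motile cilia, had 0.0597 and 0.0602 FPKM there and 0.373 and 5.84 FPKM in the SMAD7 Cre+/- libraries, from 5, 4, 27 and 372 counts. Its log2 fold change was 5.62 ± 1.47 (SE, edgeR adjusted p = 0.221), and replicate 2 was 15.5-fold above replicate 1. Rsph6a, the sperm counterpart of Rsph4a, had no counts in any library, which allows up to between 0.127 and 0.174 CPM (3 counts per library). Cfap206 and Cfap61, which belong to the spoke base, had 1 and 4 counts against 20 and 186, and 6 and 2 counts against 8 and 170. Rsph10b had 6 and 7 counts against 22 and 76. Rsph1, a further spoke head protein, had 1.43 and 1.68 FPKM against 1.8 and 6.31 FPKM. Of the 8 tested spoke genes, 4 entered the test only through the libraries labelled SMAD7 Cre+/-, and of the other 4, 0 were higher or lower at an unadjusted edgeR p under 0.05 and 0 were called by DESeq2.

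**Figure D3:**
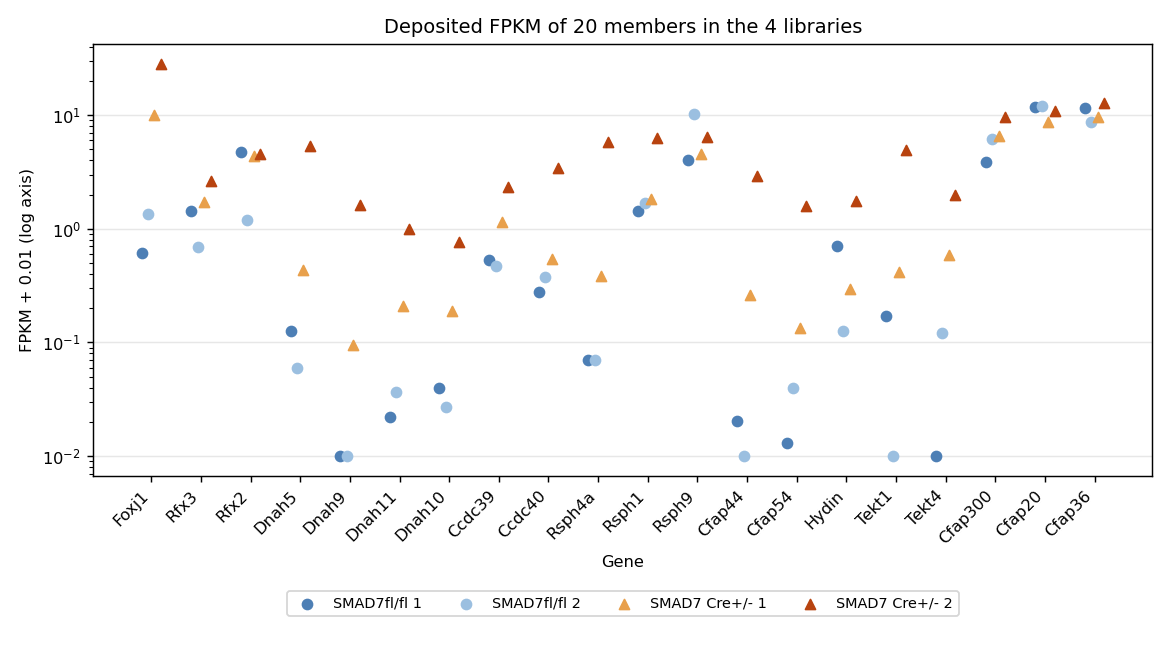
FPKM + 0.01, on a log axis, of 20 motile cilia genes in the 4 libraries (circles SMAD7fl/fl, triangles SMAD7 Cre+/-). The dark triangle of SMAD7 Cre+/- replicate 2 is on top for the dynein arm genes shown, while the 4 libraries lie close together for Cfap20 and Cfap36.

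Of the 9 central apparatus genes, 5 entered the test only through the libraries labelled SMAD7 Cre+/-. Of the other 4, 0 were higher or lower at an unadjusted edgeR p under 0.05 and 0 were called by DESeq2, while SMAD7 Cre+/- replicate 2 was the highest library for all 4. Cfap65 had no counts in the SMAD7fl/fl libraries and 29 and 267 counts in the SMAD7 Cre+/- libraries. It was at least 107-fold higher over both and at least 19.9-fold higher in replicate 1 alone, against the same limit of 3 counts. Cfap54, a large protein of a projection of the central pair, had 1 and 8 counts against 36 and 401, and a log2 fold change of 5.66 ± 1.60 (SE, edgeR adjusted p = 0.235). Cfap46 and Cfap221, its partners in that projection, had 4 and 4 counts against 7 and 156, and 6 and 2 counts against 11 and 32. Spag6l, a central pair protein, had 4 and 6 counts against 8 and 160. For Spag6l and Cfap46 the SMAD7 Cre+/- replicate 1 values were 1.64 and 1.8 times the SMAD7fl/fl pair, and their counting intervals include 1 (0.564 to 4.63 and 0.555 to 5.68).

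The remaining central apparatus genes varied within the SMAD7fl/fl group. Hydin, a giant protein of the central pair, had 0.698 and 0.116 FPKM in the SMAD7fl/fl libraries and 0.282 and 1.75 FPKM in the SMAD7 Cre+/- libraries. Cfap69 had 0.854 and 2.44 FPKM against 1.65 and 2.75 FPKM, and Cfap47 had 0.105 and 0.298 FPKM against 0.248 and 0.868 FPKM. In all 3, SMAD7 Cre+/- replicate 1 fell between the SMAD7fl/fl libraries and the groups overlapped. Without SMAD7 Cre+/- replicate 2 the log2 fold change of Hydin was -0.51.

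Of the 10 tektins and proteins bound inside the doublets, 6 entered the test only through the libraries labelled SMAD7 Cre+/-. Of the other 4, 0 were higher or lower at an unadjusted edgeR p under 0.05 and 0 were called by DESeq2. Tekt1 (chromosome 11 from 72344722 to 72362442, minus strand), a filament protein of the doublet, had 6 and 0 counts in the SMAD7fl/fl libraries and 13 and 139 counts in the SMAD7 Cre+/- libraries. Tekt4 had 0 and 4 counts against 23 and 69. Both were higher in each SMAD7 Cre+/- library than in either SMAD7fl/fl library, with log2 fold changes of 4.87 ± 1.62 and 4.52 ± 1.32 (SE, edgeR adjusted p = 0.275 and 0.242). Tekt2 had 0.849, 1.33, 0.982 and 1.48 FPKM, a log2 fold change of 0.13 ± 0.53 (SE, edgeR adjusted p = 0.924), and 20.8% of its exon bases overlap another annotated gene. Cfap126, a protein of the ciliary base and doublet lumen, had 1.67 and 2.76 FPKM against 2.98 and 11.5 FPKM.

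Cfap20, a doublet protein that is also found in cells without motile cilia, was the member with the highest mean level and did not follow the others. It had 11.8 and 12.0 FPKM in the SMAD7fl/fl libraries and 8.71 and 10.9 FPKM in the SMAD7 Cre+/- libraries. Both of the latter were lower, with a log2 fold change of -0.31 ± 0.21 (SE, edgeR adjusted p = 0.534). The proteins inside the doublet Cfap52, Cfap77 and Cfap161 had 3 and 1 counts against 8 and 85, 6 and 4 against 13 and 59, and 13 and 4 against 16 and 62. Cfap45 had 35 and 10 counts against 24 and 89, and Cfap53 had 11 and 4 against 11 and 44.

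Dynein assembly factors and the less specialised Cfap genes that were expressed in all 4 libraries differed little between groups, apart from Cfap300. Cfap300 and Cfap298 act in the assembly of dynein arms in the cytoplasm. Cfap300 had 3.83 and 6.15 FPKM in the SMAD7fl/fl libraries and 6.56 and 9.61 FPKM in the SMAD7 Cre+/- libraries. Its groups did not overlap, and the log2 fold change was 0.65 ± 0.42 (SE, edgeR adjusted p = 0.499). Cfap298 had 4.5, 5.6, 5.08 and 6.1 FPKM, but 53.6% of its exon bases overlap another annotated gene. Cfap36 had 11.5, 8.73, 9.7 and 12.9 FPKM, and Cfap97 had 7.16, 6.22, 7.0 and 9.46 FPKM. The groups of Cfap97 overlapped in FPKM but not in CPM, where the values were 35.9, 33.8, 36.0 and 48.1. Cfap410 had 2.58 and 2.5 FPKM against 2.58 and 1.74 FPKM, a log2 fold change of -0.26 ± 0.31 (SE, edgeR adjusted p = 0.707). For these genes other than Cfap300 the difference between group means was smaller than the difference between the libraries of 1 of the groups.

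Among the other Cfap genes, Cfap58 had 0 and 0 counts against 2 and 82, at least 30.5-fold higher over both SMAD7 Cre+/- libraries. That bound rests on replicate 2, since the 2 counts of replicate 1 are under the limit of 3 counts. Cfap157 had 1.1, 0.402, 0.652 and 1.42 FPKM, with overlapping groups. The last genes under the count minimum were Cfap299 (1, 0, 1 and 37 counts), Cfap99 (2, 1, 4 and 27), Rsph14 (0, 2, 0 and 22), Cfap97d2 (0, 0, 0 and 11) and Cfap97d1 (0, 0, 1 and 0). In the first 4 of these most counts came from SMAD7 Cre+/- replicate 2. The remaining inner arm and central pair genes, Dnah7b and Cfap74, had log2 fold changes of 0.74 and 1.19, with groups that did not overlap.

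The 2 libraries labelled SMAD7 Cre+/- were then set against each other. Of the members, 26 had under 20 counts over the SMAD7fl/fl pair and at least 40 over the SMAD7 Cre+/- pair. For these the CPM ratio of replicate 2 to replicate 1 ran from 3.27 (Cfap221) to 46.1 (Cfap58), with quartiles of 4.60, 11.7 and 15.7. Replicate 2 was higher for each of the 26. They were chosen in part for their SMAD7 Cre+/- counts, and the same share over all genes so chosen was not computed. The ratio was not the same for all of them: Dnah10 stood at 4.16 (95% exact counting interval 3.09 to 5.68) and Dnah11 at 4.91 (3.67 to 6.67), while Dnah3 stood at 18.7 (11.6 to 31.9) and Dnah9 at 18.5 (12.6 to 28.4). The intervals of the first pair do not meet those of the second. Foxj1 had a ratio of 2.83 (2.55 to 3.14) and Ccdc39 of 2.01 (1.66 to 2.45). These intervals cover counting error only, since reads without molecular identifiers are not independent molecules.

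**Figure D4:**
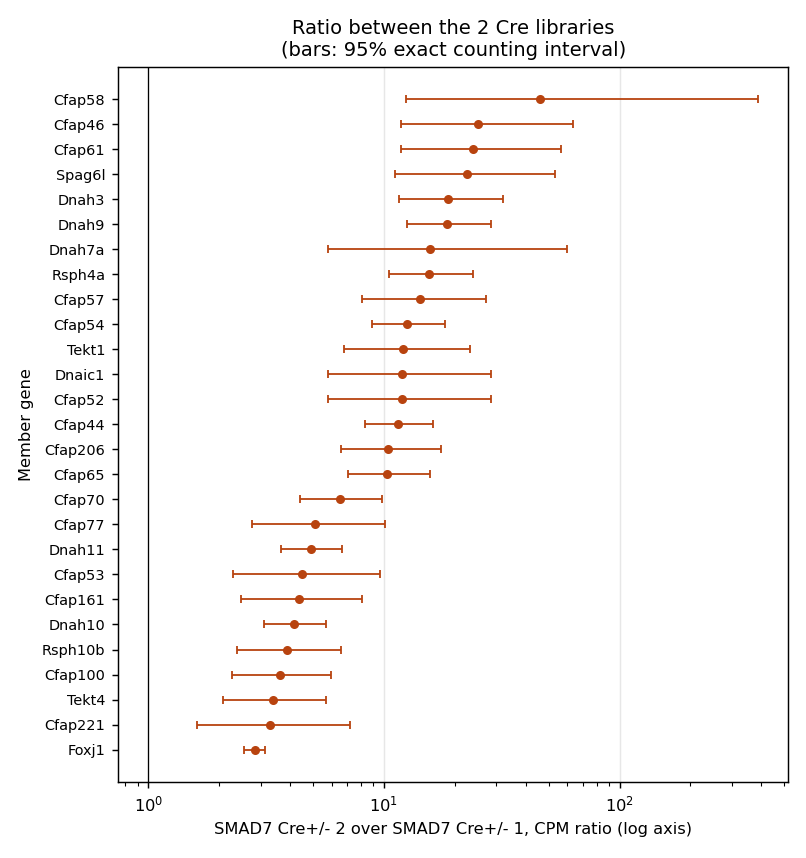
CPM ratio of SMAD7 Cre+/- replicate 2 to replicate 1, on a log axis, for Foxj1 and the 26 motile cilia genes with few SMAD7fl/fl counts (points), with 95% exact counting intervals (bars) and a line at a ratio of 1. All intervals lie to the right of the line, from Foxj1 at 2.83 to Cfap58 at 46.1. The 26 were chosen in part for their SMAD7 Cre+/- counts.

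Genes of the motile cilium that the symbol rule leaves out were read from 6 lists. Of their 103 genes 94 were tested, and 34 of these entered only through the libraries labelled SMAD7 Cre+/-. Of the 59 that reached 10 counts in each group, 10 were higher and 1 was lower by unadjusted p under 0.05, against the backgrounds of 6.77% and 6.5%. After adjustment edgeR called 0 and DESeq2 called 3 higher and 0 lower, against 2.7% and 2.61%. The median log2 fold change of the 59 was 0.43, against -0.047 over the 15561 genes with 10 counts in each group. SMAD7 Cre+/- replicate 2 was the highest library for 34 of the 59, against 20.7% of such genes.

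By list, and among genes with 10 counts in each group, 3 of 7 dynein light chains and docking factors were higher at the same unadjusted threshold and 0 lower. The list was led in level by Dynll1 (log2 fold change 0.70), which also serves cytoplasmic dynein, and Dnal4 (-0.12). Of the nexin-dynein regulatory complex, which links neighbouring doublets, 2 of 5 were higher and 0 lower, led by Ccdc65 (2.22) and Gas8 (-0.19). Of the central pair and spoke partners, 1 of 8 was higher and 0 lower, and Spef1 had a log2 fold change of 0.64. Of other ciliary proteins, 3 of 15 were higher and 0 lower, led by the tubulins Tubb4b (0.31) and Tuba1a (-0.25).

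Lists of genes that act before the axoneme is built had medians near 0 among genes with 10 counts in each group, at 0.09 for dynein assembly factors and -0.12 for fate and basal body genes. Of the dynein assembly factors, 1 of 9 was higher and 0 lower, led by Ruvbl1 (log2 fold change -0.14) and Ruvbl2 (-0.18). Of multiciliated cell fate and basal body genes, 0 of 15 were higher and 1 lower, led by Tfdp1 (-0.41) and E2f4 (-0.13). DESeq2 called 0 of these 9 and 0 of these 15. A further 3 genes in each list entered the test only through the libraries labelled SMAD7 Cre+/-. With them, 12 and 18 genes were tested. At an unadjusted edgeR p under 0.05, 3 and 3 were higher and 0 and 1 lower, against 8.35% and 6.86% of all tested genes. DESeq2 then called 1 higher and 0 lower in each list, against 3.37% and 2.7%. In the fate and basal body list Gmnc, the geminin relative upstream of Mcidas, had 0.0152, 0.0766, 0.29 and 0.729 FPKM, from 2, 8, 33 and 73 counts. The intraflagellar transport and primary cilium genes, shared by motile and primary cilia, had 1 of 31 higher and 0 lower, with a median log2 fold change of 0.10. They were led by Ift20 (-0.05) and Ift52 (-0.28).

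Markers of cell types were read beside these results, and their part in the differences was not tested. Oviduct markers, 5 of 5 in the files, summed to 37.5 and 51.8 FPKM in the SMAD7fl/fl libraries and 85.2 and 275.6 FPKM in the SMAD7 Cre+/- libraries. The sums had the same order as those of the members, but the single markers mostly did not. Of the 5, 2 had a log2 fold change above 0 and 3 below, with a median of -0.035. SMAD7 Cre+/- replicate 2 was the highest library for 1 of the 5. In the SMAD7 Cre+/- libraries most of that sum was Ovgp1, the secreted oviductal glycoprotein, with 0.489, 23.4, 56.0 and 242.8 FPKM in the 4 libraries, while Pax8 had 6.62, 11.1, 6.47 and 6.79 FPKM and no marker was at 0. Mesothelium markers, 4 of 4, summed to 12.7 and 8.40 against 42.2 and 23.5 FPKM, and smooth muscle markers, 5 of 5, to 750.9 and 631.0 against 1410 and 1114 FPKM. In both of these SMAD7 Cre+/- replicate 1 was the highest library, unlike in the members. Leukocyte markers, 4 of 4, summed to 90.8 and 84.4 against 42.8 and 44.3 FPKM.

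Markers of the labelled tissue were present, beside the smooth muscle and mesothelium markers given above. Uterine epithelium markers, 10 of 10, summed to 1019 and 1565 FPKM in the SMAD7fl/fl libraries and 1222 and 1035 FPKM in the SMAD7 Cre+/- libraries, and stroma markers, 6 of 6, to 1021, 1064, 1472 and 1390 FPKM. Log2 fold changes were above 0 for 3 of the 10 epithelium and 3 of the 6 stroma genes, with medians of -0.35 and -0.061. The rise of the stroma sums was thus not shared by most stroma genes. Gland markers, 7 of 8 in the files, summed to 143.0, 105.7, 131.2 and 144.7 FPKM, with Prss28 at 0 in 3 libraries. Endothelium markers, 3 of 3, summed to 79.5, 56.4, 53.2 and 57.2 FPKM. Ovary markers, 7 of 8, summed to 22.7, 21.1, 34.0 and 24.3 FPKM, with the oocyte gene Zp3 at 0 in all 4 libraries. The ovary sums hide differences of single genes, whose log2 fold changes ran from -0.58 to 5.84 over the 5 tested. Of these 5, 2 were higher and 0 lower at an unadjusted edgeR p under 0.05, against 8.35% and 6.86% of all tested genes. DESeq2 called 2 higher and 0 lower, against 3.37% and 2.7%, and 1 of the 5 entered only through the libraries labelled SMAD7 Cre+/-. Male germ line markers, 3 of 4, summed to at most 0.523 FPKM in any library.

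**Figure D5:**
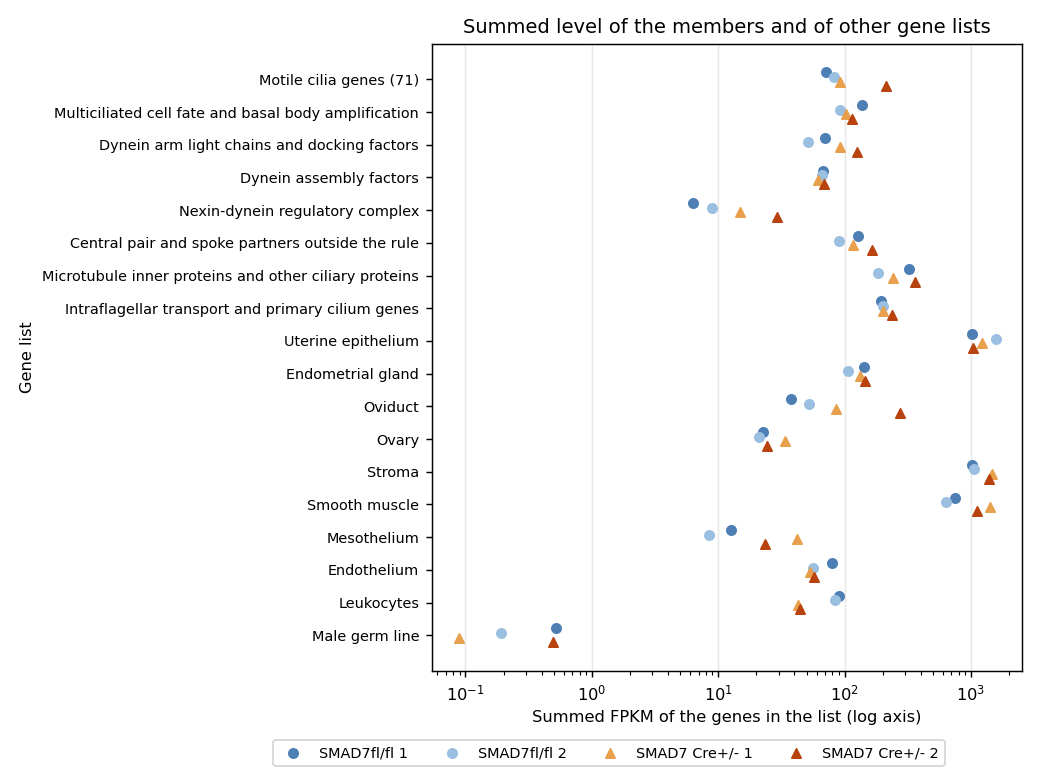
Summed FPKM, on a log axis, of the 71 motile cilia genes and of the other gene lists in each library (circles SMAD7fl/fl, triangles SMAD7 Cre+/-). The motile cilia genes and the oviduct list have their highest sums in SMAD7 Cre+/- replicate 2, at 210.7 and 275.6 FPKM, while mesothelium and smooth muscle have theirs in replicate 1. Most of that oviduct sum is Ovgp1, and replicate 2 was the highest library for 1 of the 5 oviduct genes.

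Promoters were searched because many of the members differed in the same direction. RefSeq promoters of GRCm38.p6, read over the 250 bases before the start site that RefSeq gives, were found for 58 of 71 members and for 27025 genes in all. GTTGCC, a core of the sites bound by RFX factors, was present on either strand before 20 of 58 members (34.5%) and before 11.8% of all genes. Its looser form GTTNCC, which includes it, was before 69.0% of members and 42.8% of all genes. The forkhead patterns TGTTTAC and TGTTTG, which differ in their last letters, were before 5.17% and 15.5% of members and before 3.54% and 18.05% of all genes. A match is a description of these letters and not of a bound site.

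Matches to GTTGCC are shown for Tekt1 and Cfap44, near silent in the SMAD7fl/fl libraries, and for Cfap20 and Cfap300, which were expressed in all 4. For Cfap44 the first of its 2 matches is printed. The matched letters on either strand are in capitals, 5' to 3' on the strand of the gene. The windows are chr11:72361883-72361957 (minus strand) for Tekt1, chr16:44394630-44394715 (plus strand) for Cfap44, chr8:95434918-95435003 (minus strand) for Cfap20 and chr9:8042952-8043037 (minus strand) for Cfap300. The Tekt1 window lies before its RefSeq start but inside the GENCODE span given above, where it overlaps no annotated exon.
Tekt1: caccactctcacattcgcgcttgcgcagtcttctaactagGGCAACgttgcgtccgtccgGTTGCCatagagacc
Cfap44: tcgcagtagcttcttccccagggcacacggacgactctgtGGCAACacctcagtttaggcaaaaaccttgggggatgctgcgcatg
Cfap20: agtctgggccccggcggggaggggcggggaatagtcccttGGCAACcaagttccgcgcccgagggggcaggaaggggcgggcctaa
Cfap300: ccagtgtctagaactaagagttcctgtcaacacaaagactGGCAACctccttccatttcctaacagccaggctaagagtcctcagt
The letters were thus found both at genes near silent in the SMAD7fl/fl libraries and at genes expressed in all 4.

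The 3 Dnah7 copies also carry GTTGCC, and their windows are shown because the copies differed in level: Dnah7b (chr1:46066650-46066735, plus strand), Dnah7c (chr1:46425268-46425344, plus strand) and Dnah7a (chr1:53706939-53707024, minus strand). The Dnah7b window lies before a RefSeq start but inside the GENCODE span of the gene, in no annotated exon, while the other two lie outside the GENCODE spans of their genes.
Dnah7b: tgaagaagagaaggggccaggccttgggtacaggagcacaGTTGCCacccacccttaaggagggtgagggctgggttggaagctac
Dnah7c: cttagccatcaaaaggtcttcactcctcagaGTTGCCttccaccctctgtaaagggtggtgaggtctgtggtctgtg
Dnah7a: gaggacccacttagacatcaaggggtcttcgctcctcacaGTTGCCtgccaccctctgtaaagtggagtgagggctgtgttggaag
The match was thus present both in Dnah7b, which was spread over the 4 libraries, and in Dnah7a and Dnah7c, which were high in SMAD7 Cre+/- replicate 2.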

How the data were processed

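For 4 libraries the authors deposited raw read counts and FPKM values per gene, per the file headers. HISAT2, HTSeq 0.13.5 and the build GRCm38 are named in the submitters' processing notes. TRIzol extraction and a NEBNext Ultra RNA kit are per the labels' protocols. Deposited FPKM was the count over gene length and total count: implied lengths were the same within 1e-06 for 23463 of 23463 genes with counts in 2 or more libraries. They matched merged exon lengths of GENCODE M21 (GRCm38), the source of coordinates and overlaps, within 0.1% for 26874 of 27291 genes, and 28447 of 28545 identifiers were in it. How HTSeq treated strand and reads shared by genes is not given in the sources used here, so copies and overlapping genes may be miscounted.

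The main test was edgeR 4.0.16 (glmQLFit and glmQLFTest, R 4.3.3) on the counts, with TMM scaling and a model of group alone, leaving 2 residual degrees of freedom. Genes needed a mean of 10 counts, because a minimum in FPKM sets aside long dynein genes. Two-sided p-values were adjusted over 16535 genes (Benjamini-Hochberg), and SE is the log2 fold change over the square root of F. DESeq2 1.42.0 and limma 3.58.1 were alternatives, with other filters, scalings, a replicate block and each library left out. CPM uses TMM-scaled sizes, and 3 counts are 0.127 to 0.174 CPM. Intervals of count ratios are exact binomial at 95%. The fit was first run on simulated data with known changes.

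The members and all gene lists were chosen with earlier results of these data known. Named were the regulators, the 3 members of highest mean FPKM in each role, the 10 of smallest p in each direction, members opposite to their role's median, Smad7 and the 2 genes of highest mean FPKM in each ciliary list, of which 1 gene is not reported here. All other members and other genes were named after their values were seen, and markers of cell types are given as sums. Same-numbered libraries deviated with a correlation of -0.065, so numbers were not taken as pairs. Promoters are from RefSeq; longer gapped forms of the RFX site were also searched and are not given.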

Additional observations from a re-analysis of the deposited data

How the results depend on the processing

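The direction of the members held better than their count of calls. Members higher at an adjusted p under 0.05 numbered 0 in edgeR, 37 with no filter on low counts, 23 in DESeq2 and 1 with the replicate block, and 0 to 19 with a library left out; those lower numbered 0 to 1 with a library left out. Over all genes, 0 higher and 0 lower became 995 and 933 with no filter, 557 and 446 in DESeq2, 8 and 8 with the replicate block, 1 higher in limma on log2(FPKM + 0.1), and 0 to 2085 and 0 to 1630 with a library left out. The higher ends came without a SMAD7fl/fl library, when the spread rests on the SMAD7 Cre+/- pair and the lone library is assumed to vary like it, and both counts were 0 without either SMAD7 Cre+/- library.

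At an unadjusted p under 0.05, the 29 higher members became 48 with no filter, 16 at a mean count of at least 50, 7 at a mean FPKM of at least 1, 4 and 18 in limma on log2(FPKM + 1) and log2(FPKM + 0.1), and 10 to 40 with a library left out; lower members numbered 0 to 2. The stricter filters leave fewer members to test. All genes higher, 1380, became 2168 with no filter and 499 to 3333 with a library left out; all genes lower, 1134, became 2030 and 320 to 2837. Members whose groups did not overlap, 40 higher and 2 lower, became 26 higher at a mean count of at least 50, 13 and 1 at a mean FPKM of at least 1, 4 lower with no filter, and 42 to 53 higher and 3 to 5 lower with a library left out. The median of 2.22 became 0.87 at a mean FPKM of at least 1, 0.60 in limma on log2(FPKM + 1), where the pseudocount shrinks low genes, and 0.81 to 3.11 with a library left out. The summed level kept a ratio between 1.19 and 2.72; scaling its FPKM by TMM (1.90) was added after seeing the data.

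Log2 fold changes that changed sign did so only when a library was left out, and the cause was not tested. Without SMAD7 Cre+/- replicate 2 the value was -0.70 for Dnaic2, -0.21 for Dnaic1, -0.80 for Dnah7a, -0.37 for Cfap43, -0.51 for Hydin, -0.049 for Cfap69, -0.18 for Tekt2, -0.020 for Cfap298, -0.075 for Cfap36 and -0.21 for Cfap157. Without SMAD7fl/fl replicate 2 it was -0.062 for Rfx2, 0.53 for Rsph3a, 0.47 for Rsph9, -0.0047 for Cfap36 and -0.075 for Cfap157. Without SMAD7fl/fl replicate 1 it was -0.0034 for Rsph3b, -0.24 for Cfap69, -0.20 for Tekt2 and -0.092 for Cfap298. The other ends of the ranges were 2.64 for Dnaic2, 5.74 for Dnaic1, 3.13 for Dnah7a, 2.40 for Cfap43, 3.03 for Hydin, 1.38 for Cfap69, 0.55 for Tekt2, 0.33 for Cfap298, 0.31 for Cfap36, 1.26 for Cfap157, 1.83 for Rfx2, -0.63 for Rsph3a, -0.99 for Rsph9 and 0.93 for Rsph3b. The replicate block, with the same numbers as pairs, called Foxj1 (4.20) and no other member; the crossed pairing was not run, since the correlation was not under -0.1. Genes under about 10 counts per library could show only large differences at this depth.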

Other observations

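SMAD7 Cre+/- replicate 2 also held genes that the ciliary lists do not include and that were nearly absent elsewhere. The lists are not a full catalogue of ciliary genes, so absence from them does not make a gene unrelated to cilia. Of the 16535 tested genes, 159 were at least 5-fold higher in that library than in each of the others, against 94 and 37 in the SMAD7fl/fl libraries and 4 in SMAD7 Cre+/- replicate 1. The 159 included 22 members and 27 genes of the ciliary lists, and none of either was among the 94, 37 or 4. Of the tested members 26 of 61, and of the tested list genes 34 of 94, passed the count minimum only through the libraries labelled SMAD7 Cre+/-. Those genes could not be 5-fold higher in a SMAD7fl/fl library, so the contrast with the SMAD7fl/fl libraries was partly fixed by the filter. The genes named next were chosen after their values were seen. Sec14l3 had no counts in the other libraries and 867 in this one. Ldlrad1 had 0, 0, 1 and 150 counts, Cdhr3 had 0, 0, 10 and 350, Ccdc153 had 0, 0, 27 and 405, and Spata18 had 0, 0, 12 and 317.

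Further genes of that set are given with the kind of protein they encode. A2ml1, a protease inhibitor, had 293, 47, 139 and 6199 counts. Timp4, an inhibitor of metalloproteinases, had 16, 15, 10 and 350. Sox3, a transcription factor, had 0, 0, 15 and 281. The cytochrome P450 genes Cyp2b10 and Cyp2a5 had 4, 0, 0 and 105 counts and 1, 0, 0 and 84. What these genes share beyond their library was not tested.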
